A study of Mus musculus with 6 samples.

Results

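The amino acid carriers described here are the genes of 5 solute carrier families, Slc1, Slc3, Slc7, Slc36 and Slc38. They were chosen by gene symbol alone, as the rows of the count table whose name is Slc1a, Slc3a, Slc7a, Slc36a or Slc38a followed by a number. The rule found 39 genes among the 35977 in the table, and 23 of them had enough reads to be tested. Gene expression was measured in bulk mouse liver by messenger RNA sequencing after injection of AAV9, an adeno-associated virus used to deliver genes. Both groups received a vector in which the promoter of Tnnt2, the cardiac troponin T gene, drives Cre recombinase. The group called Cre (AAV-Tnnt2-Cre, replicates 10, 11 and 12, n = 3) received that vector, and the group called Cre-miR122 (AAV-Tnnt2-Cre-miR122, replicates 1, 2 and 4, n = 3) received a version with added target sites for miR-122, the microRNA that dominates the microRNA pool of hepatocytes. No group without a vector was analysed here, so both groups share the AAV9 capsid, the promoter and Cre. The labels give no strain, age, sex, dose or time after injection. They also do not say whether each library came from a separate animal. The spread behind each p-value is therefore that of these 6 samples only, and may be technical in part.

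Amino acids cross the hepatocyte membrane through several carrier systems. Cationic carriers of the Slc7 family bring in arginine, lysine and ornithine. Other Slc7 proteins are light chains that reach the membrane only when bound to a heavy chain of the Slc3 family. Slc1 proteins carry glutamate or exchange neutral amino acids, and some Slc36 proteins move small amino acids with protons. Slc38 proteins carry glutamine and other neutral amino acids with sodium (systems A and N). The liver takes up alanine and glutamine for glucose and urea synthesis, and keeps arginine uptake low. Slc7a1, which encodes the cationic carrier CAT1, is a classical target of miR-122 in human liver cells.

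The target sites in these genes are shown because the 2 vectors differ in their miR-122 sites. The 7 bases ACACTCC, which pair with bases 2 to 8 of miR-122, were searched on the sense strand of each gene's longest 3′ UTR in GENCODE M21, and an 8-mer is the same word followed by an A. All 39 carrier genes had such a UTR, and 9 of them (23.1%) held at least 1 match, compared with 9.39% of 20834 genes. The median UTR of the carriers was 1328 bases and that of all genes 1111 bases, and the carriers held 14.4 matches and all genes 6.50 matches per 100 kb of UTR. Slc7a1 lies on chromosome 5 (GRCm38, chr5:148327410-148399904, minus strand) and held 2 matches, both 8-mers, in a UTR of 5030 bases. The other 8-mers were in Slc38a9 (2), Slc1a5 (1 of its 2 matches) and Slc7a11 (1). The 8-mer sites of Slc7a1 and of Slc38a9, a lysosomal protein that reports arginine to the growth regulator mTORC1, are given 5′ to 3′ with the seed match in capitals.
Slc7a1, chr5:148332102-148332123: catcgcccatgtgcACACTCCa
Slc7a1, chr5:148328374-148328395: aagtgaaacgtgctACACTCCa
Slc38a9, chr13:112734299-112734320: tcattgccatcagcACACTCCa
Slc38a9, chr13:112735070-112735091: gtctactttgacttACACTCCa
A match is a stretch of letters and was not tested as a bound site.

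The 6 libraries held 20340994 to 20817837 reads counted in genes. The Cre transcript had 37 to 61 counts with Cre and 10 to 16 with Cre-miR122. Cre replicate 10 had 1676 counts of the Y-linked gene Ddx3y, and the other libraries had at most 1. Xist, a transcript typical of female cells, showed the reverse, with 5 counts in Cre replicate 10 and 15778 to 22413 in the others. By these counts Cre replicate 10 was male and the other libraries were female. The Cre group therefore mixed the sexes, while the Cre-miR122 group did not. Sex was not part of the fit, and its share in the group differences and in the spread within the Cre group was not tested. The hepatocyte gene Alb stood between 93392 and 116981 CPM (CPM values are read counts scaled to library size with the TMM factors) in all libraries, while the summed level of 5 pancreatic enzyme genes was 3.76 to 4.79 CPM and that of 4 muscle genes 0.194 to 1.60 CPM. In bulk tissue, fewer cells of a type and less RNA per cell cannot be told apart.

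Slc38 genes made up most of the carrier RNA of these livers. Levels of different genes were compared per length, as TPM, which is the count per kilobase of exon scaled to the same total in every library. Slc38a3, which encodes the system N glutamine carrier SNAT3, was first at 462 TPM over the 6 libraries (range 400 to 540) and held 45.8% of the summed TPM of the 39 genes. Slc38a4, the system A carrier SNAT4, which is imprinted and expressed from the paternal copy in mouse, followed at 282 TPM (213 to 313). These 2 genes together held 73.7% of the carrier level, and their ranges did not overlap. Slc38a2 at 70.4 TPM (53.0 to 113) and the cationic carrier gene Slc7a2 at 63.5 TPM (39.6 to 80.2) overlapped in range, and the first 4 genes held 87.0%. Below them stood Slc1a4 (23.02 TPM), Slc38a10 (21.01 TPM), Slc36a1 (14.6 TPM), Slc38a7 (13.5 TPM), Slc1a2 (11.4 TPM) and Slc3a2 (10.8 TPM). Of the 22 neighbouring pairs in the order of the tested genes, 17 overlapped in range over the libraries, so the finer order is not resolved. Slc7a1 was the lowest of the tested genes, at 0.532 TPM (0.369 to 0.657).

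**Figure D1:**
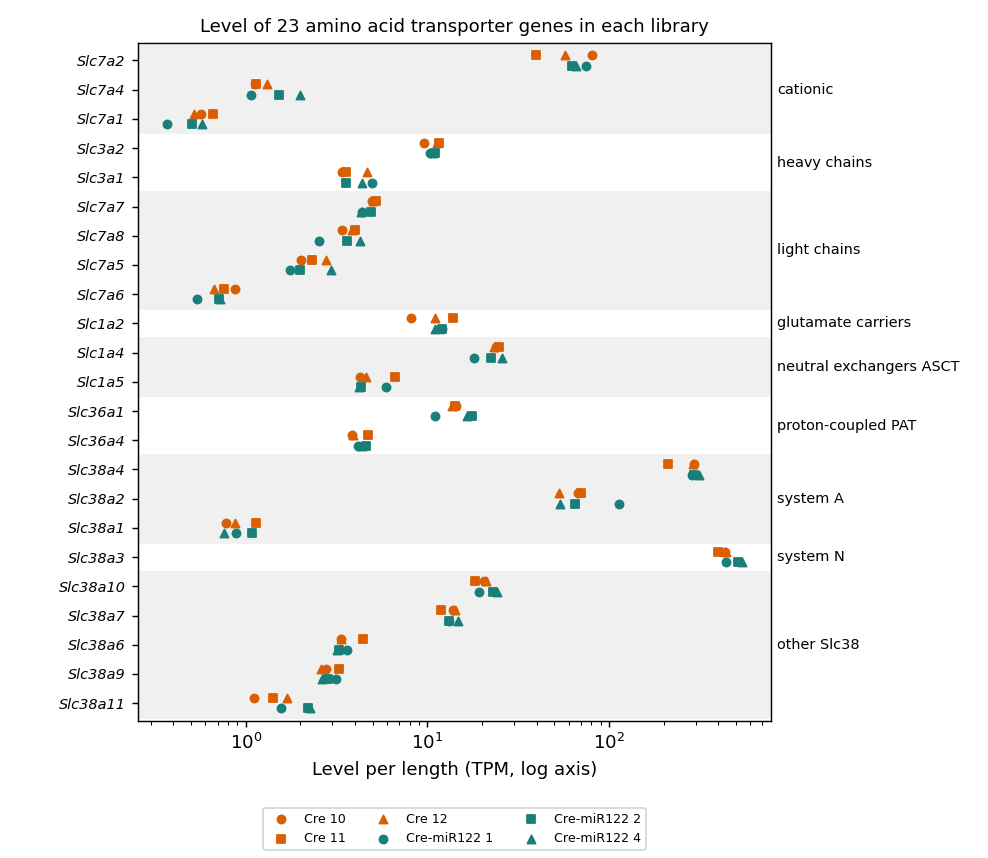
Level per length in TPM (log axis) of the 23 tested carrier genes, grouped by class, with 1 point per library (orange, Cre; green, Cre-miR122; the shape gives the replicate). Slc38a3 and Slc38a4 stand above 200 TPM in every library, and Slc7a1 stays below 1 TPM.

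The summed level of the 39 genes was 945 ± 76.7 TPM with Cre and 1074 ± 39.2 TPM with Cre-miR122 (SD, n = 3 each). The sums were 1000.3, 857 and 976 TPM in Cre replicates 10, 11 and 12, and 1036, 1073 and 1114 TPM in Cre-miR122 replicates 1, 2 and 4. The groups did not overlap in this sum, which is a description of the class and was not tested. It rests on TPM, which was not scaled with the TMM factors. Beside it, 11.1% of all tested genes did not overlap between the groups in CPM. Slc38a3 and Slc38a4 supplied most of the gap (692 ± 68.9 and 797 ± 63.6 TPM), and for these 2 genes together the groups overlapped. The other 37 genes summed to 253 ± 16.3 and 278 ± 26.4 TPM, again with overlap.

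No carrier gene passed the test between the vectors. Genes were compared with the edgeR quasi-likelihood test, as Cre-miR122 minus Cre, with Benjamini-Hochberg adjustment over all 14374 tested genes and a threshold of 0.05. Of the 23 carrier genes 0 passed, beside 0% of all tested genes, and the adjusted p of the carriers ran from 0.816 to 0.970. At an unadjusted p under 0.05 there were also 0 carriers, beside 5.41% of all tested genes (2.76% higher and 2.65% lower with Cre-miR122), and DESeq2 and limma-voom gave 0 carriers at either threshold. The log2 fold changes were above 0 for 12 carriers and below 0 for 11 (52.2% above, beside 49.4% of all tested genes), with a median of 0.025 and a median of -0.0029 over all tested genes. Their range was -0.28 (Slc7a1) to 0.50 (Slc38a11). The 95% interval of the difference lay within a 2-fold change in either direction for 22 of the 23 carriers (95.7%, beside 90.5% of all tested genes). The exception was Slc38a11, whose interval reached 1.07. The groups did not overlap for 1 carrier, Slc7a7, which was lower with Cre-miR122 (4.35% of the carriers, beside 5.45% of all tested genes). No carrier was higher without overlap, beside 5.69% of all tested genes, and in either direction the share of all tested genes was 11.1%.

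**Figure D2:**
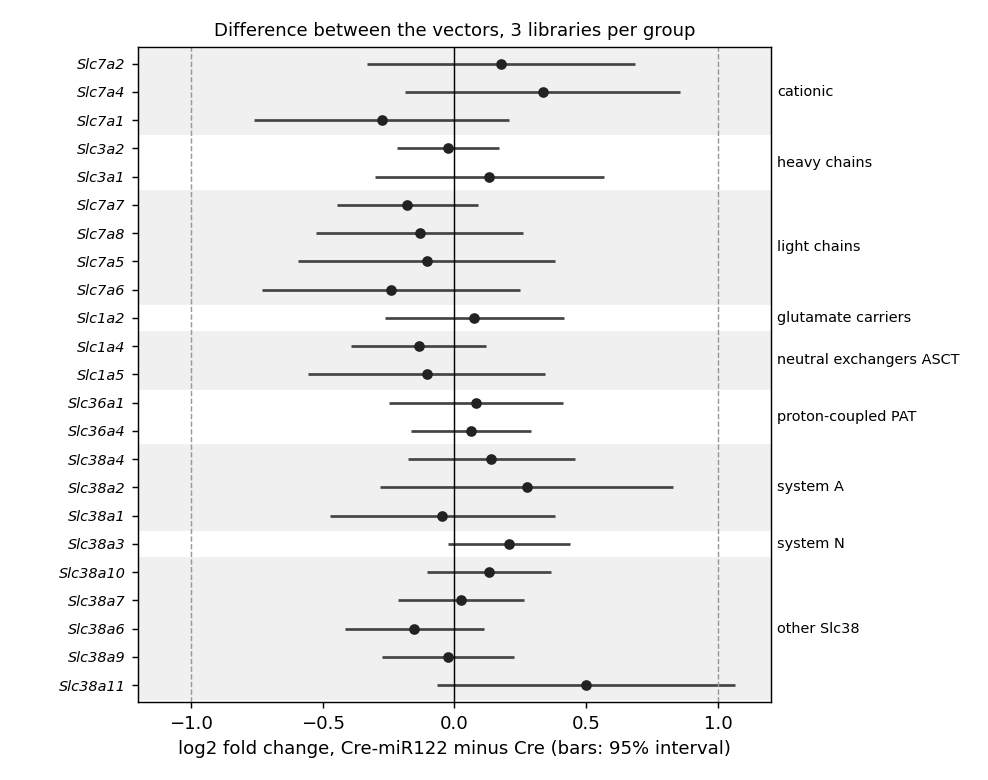
Log2 fold change, Cre-miR122 minus Cre, of the 23 tested carrier genes by class, with 95% intervals from the edgeR fit (3 libraries per group). All 23 intervals include 0, and only that of Slc38a11 crosses a dashed line, which marks a 2-fold change.

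Among the cationic carriers, Slc7a2 was far above Slc7a1. Slc7a1 had 42, 49 and 38 counts in Cre replicates 10, 11 and 12, and 27, 37 and 42 counts in Cre-miR122 replicates 1, 2 and 4. The groups overlapped, since Cre-miR122 replicate 4 was as high as Cre replicate 10 in counts. Slc7a1 stood at 2.09 ± 0.192 CPM in the Cre group, against 1.72 ± 0.348 CPM in the Cre-miR122 group (SD, n = 3 each). The log2 fold change was -0.28 (SE 0.22, 95% interval -0.76 to 0.21, edgeR adjusted p = 0.821), and an exact two-sided permutation test over the 6 libraries gave p = 0.2, where 0.1 is the smallest value that 3 against 3 allows. Cre-miR122 replicate 1 held the lowest value, and without it the log2 fold change was -0.13. The low count is a limit here, because the interval covers both no difference and a drop by 0.76 on the log2 scale.

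Slc7a2 encodes CAT2, whose low-affinity form is the main cationic carrier of hepatocytes (chr8:40862367-40922070, plus strand). It was at 360.3, 168 and 257 CPM in Cre replicates 10, 11 and 12 and at 332, 270.2 and 285 CPM in Cre-miR122 replicates 1, 2 and 4. The Cre group spanned the whole range of the other group, with replicate 11 lowest and replicate 10 highest. The log2 fold change of 0.18 (SE 0.23, edgeR adjusted p = 0.879) turned to -0.062 without Cre replicate 11. Per length, Slc7a2 exceeded Slc7a1 by 60.4 to 202 times in single libraries, with a mean ratio of 104 ± 41.2 with Cre and 147 ± 48.1 with Cre-miR122 (SD, n = 3 each), and the groups overlapped in this ratio. No match to the miR-122 seed was found in the 5774-base UTR of Slc7a2. Slc7a4, a relative of these carriers, had 46, 47 and 53 counts with Cre, against 43, 61 and 80 with Cre-miR122. The groups overlapped through Cre-miR122 replicate 1, and the log2 fold change was 0.33 (SE 0.23, edgeR adjusted p = 0.819). Slc7a3, the cationic carrier of brain, had 3 to 6 counts per library, and Slc7a14 had 0 counts in all 6.

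The 2 heavy chains were both present, and each had light chains that were nearly absent. Slc3a2 encodes 4F2hc, the heavy chain of the Slc7a5, Slc7a6, Slc7a7, Slc7a8, Slc7a10 and Slc7a11 light chains (chr19:8706882-8723369, minus strand). It was at 28.9, 32.8 and 33.8 CPM in the Cre libraries and at 31.0, 31.9 and 31.1 CPM in the Cre-miR122 libraries, in replicate order. These values overlapped and were among the steadiest of the carriers, with a log2 fold change of -0.024 (SE 0.086, 95% interval -0.22 to 0.17, edgeR adjusted p = 0.961). Its 6 light chains summed to 12.01 ± 0.665 TPM with Cre and 10.9 ± 1.495 TPM with Cre-miR122, and the ratio of Slc3a2 to that sum ran from 0.855 to 1.12 over the libraries. Of these 6, Slc7a10 had 0 to 3 counts and Slc7a11 had 0 to 2 counts per library. Slc3a1 encodes rBAT, the heavy chain of the cystine and cationic carrier of kidney and gut. It had 79, 83 and 107 counts with Cre and 114, 81 and 99 with Cre-miR122 (log2 fold change 0.13, SE 0.19). Its light chains Slc7a9 and Slc7a13 had at most 2 counts and 0 counts per library. Slc7a15, also classed with the light chains, had 2 to 15 counts. Exons of Slc3a1 overlap those of Prepl on the other strand over 606 bases, 26.3% of its length, and without the strand setting the reads there cannot be assigned.

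All 4 tested light chains had log2 fold changes below 0, none past the test. Slc7a7, which encodes y+LAT1, a carrier of cationic amino acids found in gut, kidney and macrophages, was at 7.33, 7.27 and 7.35 CPM in the Cre group, against 6.38, 6.91 and 6.10 CPM in the Cre-miR122 group. Its groups did not overlap, and its log2 fold change was -0.18 (SE 0.12, edgeR adjusted p = 0.816). Markers of several immune cell types are given beside it. All 5 B cell markers were below 0 in log2 fold change (median -0.65). Each had an unadjusted p under 0.05 with edgeR, beside 2.65% of all tested genes lower at that level. Their sums were 21.1 to 27.1 CPM in the Cre libraries and 12.4 to 16.4 CPM in the Cre-miR122 libraries. Of 8 Kupffer cell markers 7 lay below 0 (median -0.19, sums 501 to 619 and 416 to 540.1 CPM), and Adgre1 lay above (0.26). All 6 tested neutrophil markers lay below 0 (median -0.47, sums 17.4 to 22.0 and 15.1 to 15.8 CPM). Of the 6 tested T and NK cell markers 4 lay below 0 and 2 above (Cd3e at 0.48 and Cd8a at 0.27), with a median of -0.14 and sums of 6.64 to 9.42 CPM and 6.38 to 6.73 CPM. At an unadjusted p under 0.05 with edgeR, 3 neutrophil markers, 1 Kupffer cell marker and 1 T and NK cell marker were also lower. None of these markers was at 0 in all libraries, and none passed the edgeR test over all genes. Their part in the Slc7a7 values was not tested. Exons of Slc7a7 also share 228 bases with Oxa1l on the other strand.

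The large neutral amino acid carriers were low. Slc7a5, or LAT1, which brings leucine into dividing cells, was at 3.52, 3.82 and 4.85 CPM in the Cre group, against 3.04, 3.34 and 4.94 CPM in the Cre-miR122 group. The groups overlapped fully, with a log2 fold change of -0.11 (SE 0.22, edgeR adjusted p = 0.930), which turned to 0.041 without Cre replicate 12 and to 0.027 without Cre-miR122 replicate 1. All 5 markers of dividing cells lay above 0 (median 0.55), with sums of 89.3 to 144.2 CPM in the Cre libraries and 143.7 to 182 CPM in the Cre-miR122 libraries. Of these, 4 had an unadjusted p under 0.05 with edgeR, beside 2.76% of all tested genes higher at that level. None passed the test over all genes. Slc7a8, or LAT2, was at 6.89, 7.598 and 7.80 CPM in the Cre group, against 5.09, 7.01 and 8.23 CPM in the Cre-miR122 group (log2 fold change -0.13, SE 0.17). The difference was 0.037 on the log2 scale when Cre-miR122 replicate 1 was left out. Slc7a6, or y+LAT2, was at 1.75 ± 0.249 and 1.48 ± 0.202 CPM (log2 fold change -0.24, SE 0.22). Slc7a11, the cystine and glutamate exchanger xCT, which feeds glutathione synthesis, had 0, 2 and 0 counts with Cre and 1 count in each library with Cre-miR122.

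Of the glutamate carriers, Slc1a2 alone had enough reads to be tested. It encodes GLT-1, which takes up glutamate in astrocytes and in the hepatocytes around the central vein, where Glul makes glutamine (chr2:102658594-102790784, plus strand). Slc1a2 was at 53.2, 85.5 and 71.6 CPM in Cre replicates 10, 11 and 12 and at 77.9, 75.0 and 68.7 CPM in Cre-miR122 replicates 1, 2 and 4. Cre replicate 10, the library with Y-linked reads, was lowest and Cre replicate 11 highest, so the Cre group enclosed the other. The log2 fold change of 0.076 (SE 0.15, edgeR adjusted p = 0.929) turned to -0.088 without Cre replicate 10. Slc1a1, Slc1a3, Slc1a6 and Slc1a7, the carriers of kidney, brain and retina, had 0 to 11 counts per library. The neutral exchangers were both expressed. Slc1a4, or ASCT1, was at 46.8, 46.0 and 45.3 CPM in the Cre libraries and at 34.96, 42.1 and 48.5 CPM in the Cre-miR122 libraries, a wider spread that enclosed the Cre libraries (log2 fold change -0.14, SE 0.11). Slc1a5, or ASCT2, the glutamine exchanger of dividing cells, was at 5.99, 8.86 and 6.45 CPM in the Cre group, against 8.33, 5.80 and 5.71 CPM in the Cre-miR122 group. Its log2 fold change of -0.11 (SE 0.20) turned to 0.086 without Cre replicate 11. Per length Slc1a4 exceeded Slc1a5 by 3.03 to 6.12 times.

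Among the Slc36 genes, which encode carriers of the lysosome and cell surface, Slc36a1 and Slc36a4 were expressed. Slc36a1 was at 37.99, 35.5 and 35.9 CPM in the Cre libraries and at 28.9, 44.7 and 42.1 CPM in the Cre-miR122 libraries. Cre-miR122 replicate 1 was below and the other 2 libraries of its group above all Cre libraries. The log2 fold change was 0.082 (SE 0.15, edgeR adjusted p = 0.919), and it was 0.25 when Cre-miR122 replicate 1 was left out and -0.038 when replicate 2 of that group was. Slc36a4 was at 12.4 ± 1.012 and 12.9 ± 0.466 CPM (log2 fold change 0.063, SE 0.10). Slc36a2 and Slc36a3, which neighbour Slc36a1 on chromosome 11, had 0 counts in all libraries and 0 to 2 counts per library.

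The promoters of these neighbours are shown because one gene was read throughout and the other had at most 2 counts. The windows run from 250 bases before to 50 bases after the RefSeq start (GRCm38.p6), and capitals mark CG dinucleotides, the bases that carry DNA methylation in mammals. Slc36a1 (chr11:55204090-55204389, plus strand) holds 15 CG and Slc36a3 (chr11:55151659-55151958, minus strand) holds 1. The ratio of observed to expected CG was 0.679 and 0.0515, and 69.5% and 6.17% of all 32851 promoter windows lay lower. DNA methylation was not measured.
Slc36a1: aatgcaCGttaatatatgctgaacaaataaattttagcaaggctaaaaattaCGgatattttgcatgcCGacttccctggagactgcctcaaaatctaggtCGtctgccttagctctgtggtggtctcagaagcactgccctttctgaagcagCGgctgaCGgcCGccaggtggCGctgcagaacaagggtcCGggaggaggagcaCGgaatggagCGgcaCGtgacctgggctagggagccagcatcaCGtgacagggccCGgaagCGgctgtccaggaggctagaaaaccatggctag
Slc36a3: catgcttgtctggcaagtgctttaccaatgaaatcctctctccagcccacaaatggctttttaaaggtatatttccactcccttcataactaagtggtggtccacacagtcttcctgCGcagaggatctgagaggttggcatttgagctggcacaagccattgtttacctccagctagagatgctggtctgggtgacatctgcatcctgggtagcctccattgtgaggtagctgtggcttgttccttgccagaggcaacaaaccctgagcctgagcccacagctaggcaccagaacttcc
CG content and level did not go together in every carrier. Slc38a4, at 282 TPM, had a ratio of 0.238 at its first start, while Slc7a14, with 0 counts, had 0.705. Promoter windows were found for 29 of the 39 carriers.

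Slc38a3, the most abundant carrier gene (chr9:107651154-107668968, minus strand), had the smallest p of the 23. It was at 673, 585 and 685 CPM in the Cre group, against 678, 765 and 800.4 CPM in the Cre-miR122 group. The groups overlapped through Cre-miR122 replicate 1, which lay below Cre replicate 12, while the other 2 libraries of that group were above all Cre libraries. Means were 648 ± 54.4 and 748 ± 62.8 CPM, with a log2 fold change of 0.21 (SE 0.10, 95% interval -0.024 to 0.44, unadjusted p = 0.0735 and adjusted p = 0.816 with edgeR). The system N relative Slc38a5 was too low to test, with 8 to 16 counts per library.

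Of the system A genes, Slc38a4 was at 643, 438 and 633 CPM in the Cre libraries and at 619, 617 and 654 CPM in the Cre-miR122 libraries (chr15:96994823-97055956, minus strand). Cre replicate 11 alone stood apart, and the other 5 libraries lay between 617 and 654 CPM. Its log2 fold change of 0.14 (SE 0.14, edgeR adjusted p = 0.845) turned to -0.019 without Cre replicate 11. Slc38a2, or SNAT2, which cells induce when amino acids run short, was at 157, 154 and 123 CPM in the Cre group, against 260.02, 145 and 119.9 CPM in the Cre-miR122 group. Cre-miR122 replicate 1 was far above every other library, and the other 2 libraries of its group lay below the 2 higher Cre libraries. The log2 fold change of 0.27 (SE 0.25, edgeR adjusted p = 0.831) turned to -0.13 without that library. Slc38a1, or SNAT1, was at 3.86 ± 0.640 and 3.75 ± 0.652 CPM (log2 fold change -0.046, SE 0.19). Slc38a1, Slc38a2 and Slc38a4 lie on the same strand of chromosome 15 between 96571418 and 97055956, and per length their levels were 0.918, 70.4 and 282 TPM.

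The remaining Slc38 genes include lysosomal and little-studied carriers. Slc38a9, the arginine sensor whose 8-mer sites are given above, was at 15.3, 17.1 and 14.4 CPM in the Cre libraries and at 17.2, 15.0 and 13.9 CPM in the Cre-miR122 libraries. The groups overlapped throughout, with a log2 fold change of -0.024 (SE 0.11, 95% interval -0.28 to 0.23, edgeR adjusted p = 0.970). Slc38a7, a lysosomal glutamine exporter, was at 23.2 ± 2.87 and 23.6 ± 1.36 CPM (log2 fold change 0.025, SE 0.11). Slc38a10 was at 62.9, 53.4 and 64.4 CPM in the Cre group, against 58.7, 67.9 and 71.3 CPM in the Cre-miR122 group (log2 fold change 0.13, SE 0.10). Slc38a6 was at 16.1, 20.1 and 16.1 CPM in the Cre libraries and at 17.4, 15.0 and 14.8 CPM in the Cre-miR122 libraries (log2 fold change -0.15, SE 0.12). Slc38a11 had 18, 23 and 27 counts with Cre and 25, 35 and 36 with Cre-miR122, and the groups overlapped through the first library of the second group. It had the largest log2 fold change of the 23 carriers (0.50, SE 0.25, edgeR adjusted p = 0.816), at 1.10 ± 0.231 and 1.56 ± 0.273 CPM.

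The 7 tested carriers with a miR-122 seed match were Slc1a2, Slc1a5, Slc38a1, Slc38a2, Slc38a9, Slc7a1 and Slc7a6. Of these 5 lay below 0 and 2 above, with a median log2 fold change of -0.046, and of the 16 tested carriers without a match 6 lay below 0 and 10 above, with a median of 0.072. Both medians describe few genes and were not compared by a test.

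In all, 16 carriers were too low to test. Slc7a12, Slc7a13, Slc7a14, Slc36a2 and Slc38a8 had 0 counts in all 6 libraries, and a count of 0 allows up to 3 counts per library, or 0.140 to 0.150 CPM. Slc7a15 had 2 to 15 counts, with the highest value in Cre-miR122 replicate 1. Slc7a10 had 0 to 3 counts, and its exons share 239 bases with Lrp3 on the other strand. The highest count of the 16 genes in any library was 16.

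Several carriers varied between libraries of the same group. The median within-group SD of the carriers was 0.23 on the log2 CPM scale, beside 0.15 over the 13036 genes with a mean of at least 1 CPM. Slc38a2 (SD 0.44) and Slc7a2 (SD 0.40) varied most, more than 95.1% and 93.9% of those genes. Slc7a7 (SD 0.065), Slc3a2 (SD 0.086) and Slc36a4 (SD 0.090) varied least. Single libraries held the extremes. Cre-miR122 replicate 1 was the lowest library for 7 of the 23 genes, among them Slc7a1, Slc7a5, Slc7a6, Slc7a8, Slc1a4 and Slc36a1, and the highest for 3 (Slc38a2, Slc38a9 and Slc3a1). Cre replicate 11 was the lowest for 6 genes, among them Slc38a3, Slc38a4 and Slc7a2, and the highest for 6 others, among them Slc1a2, Slc1a5 and Slc7a1. Cre-miR122 replicate 4 was the highest for 8 genes, among them Slc38a3 and Slc38a4, and the lowest for 6, among them Slc38a2 and Slc7a7.

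**Figure D3:**
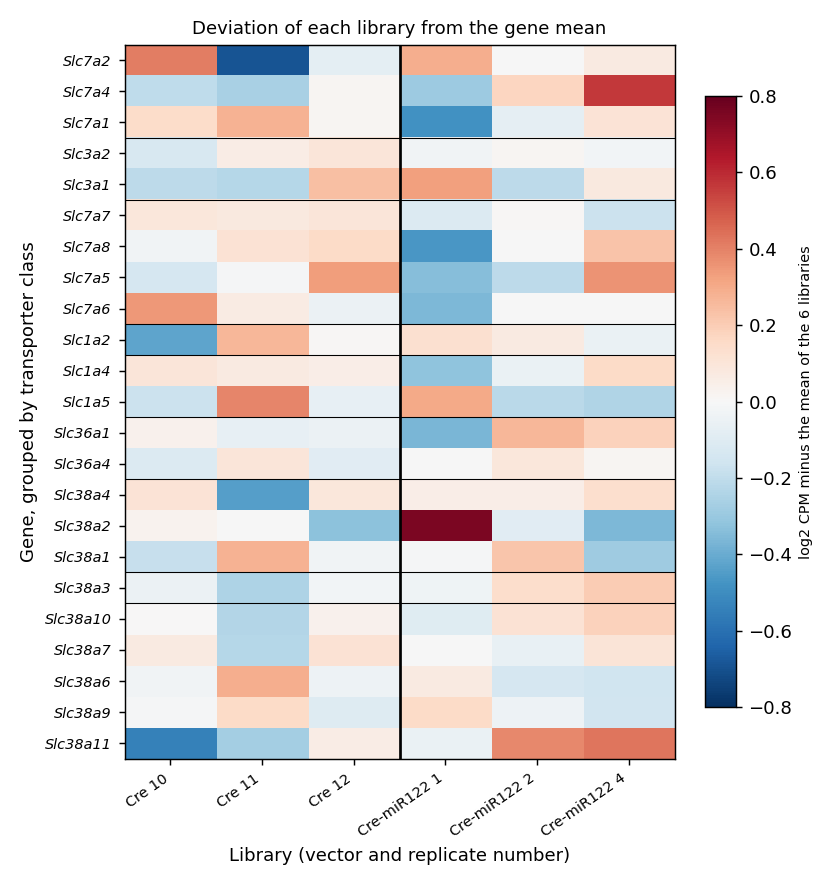
Heat map of log2 CPM of the 23 tested carrier genes in each library minus the mean of the 6 libraries (red, above; blue, below), with genes grouped by class and a line between the vectors. Slc38a2 stands out in Cre-miR122 replicate 1 and Slc7a2 in Cre replicate 11, and no block of genes separates the vectors.

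Some liver zone and metabolic genes had their extremes in the same single libraries. They were picked from the marker and amino acid lists after their values were seen and are given as values. Other genes of these lists did not all follow. Among the periportal hepatocyte markers, Gls2, Hal, Sds, Pck1 and Arg1 were lowest in Cre replicate 11. Sds was highest in Cre replicate 10 (360 CPM, against 353 CPM in Cre-miR122 replicate 1), where Slc7a2 was also highest. The remaining periportal marker, Cyp2f2, was lowest in Cre replicate 10 (95.4 CPM, against 96.5 CPM in Cre replicate 11). Glul and Rhbg, which encode glutamine synthetase and an ammonia channel of pericentral hepatocytes, were lowest in Cre replicate 10 (546 and 11.3 CPM, against 854 to 1027 and 18.04 to 23.2 CPM in the other libraries), the library in which Slc1a2 was lowest. All 7 pericentral markers were lowest in Cre replicate 10. Their median there lay 0.54 below the 6-library mean in log2 units. Cps1, the entry enzyme of the urea cycle, was at 2563 CPM in Cre replicate 11 and at 3987 to 4877 CPM in the other libraries, and Hal, the histidine ammonia lyase, at 127 and 222.4 to 268 CPM. The same library was lowest for Slc7a2, Slc38a3 and Slc38a4. Pck1, the gluconeogenic enzyme PEPCK, and Gpt2, an alanine aminotransferase, were highest in Cre-miR122 replicate 1 (4682 and 203 CPM, against 2331 to 3727 and 112 to 131 CPM), where Slc38a2 was highest. The part of these genes in the carriers' values was not tested.

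**Figure D4:**
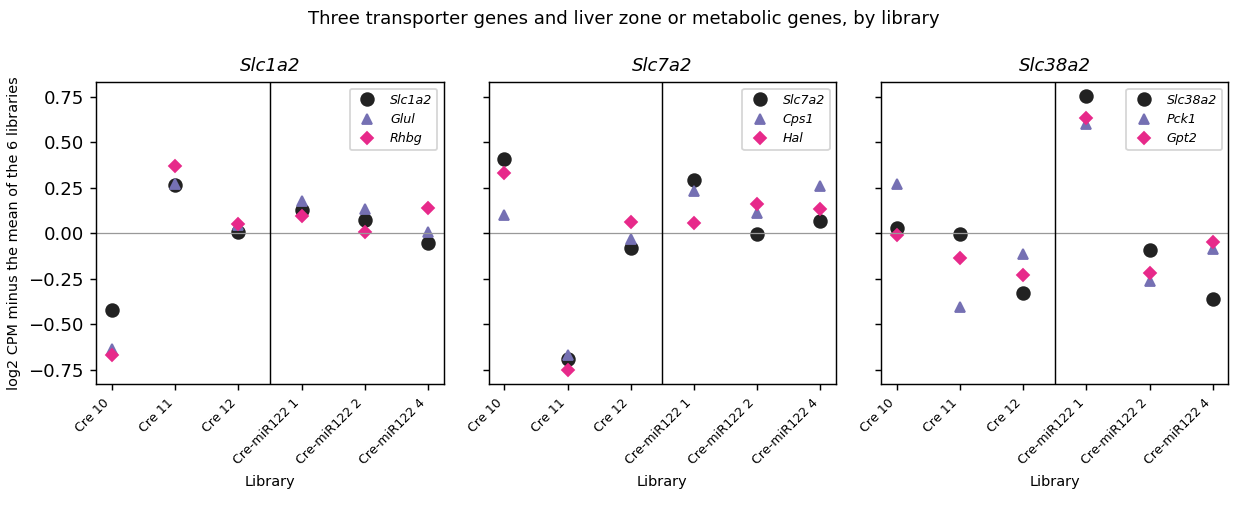
Log2 CPM minus the mean of the 6 libraries for Slc1a2 with Glul and Rhbg, Slc7a2 with Cps1 and Hal, and Slc38a2 with Pck1 and Gpt2, by library (the line divides Cre from Cre-miR122). In each panel the 3 genes share their most extreme library, which is Cre replicate 10, Cre replicate 11 and Cre-miR122 replicate 1 in turn.

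Other genes of amino acid handling, taken from 5 lists, did not pass the test either. Of 114 tested genes of these lists 0 passed the edgeR test over all genes (smallest adjusted p = 0.816), and 3 had an unadjusted p under 0.05 (2.63%, beside 5.41% of all tested genes). Carriers of other families had 10 of 17 genes above 0 (median 0.024), with the creatine carrier Slc6a8 at 12.8 ± 1.201 and 15.0 ± 0.192 CPM (log2 fold change 0.22, SE 0.10). The peptide carrier Slc15a2 had the largest difference of that list (-1.76, SE 0.75), and it was at 13.4 CPM in Cre replicate 11 and at 0.194 to 3.75 CPM in the other libraries. Genes by which mTORC1 senses amino acids had 23 of 33 above 0 (median 0.069), and the 3 of smallest p were Depdc5 (0.25, SE 0.14), Rptor (0.17, SE 0.10) and Tsc1 (0.28, SE 0.17).

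Genes of the amino acid response, which the kinase Eif2ak4 and the factor Atf4 switch on when amino acids run short, had 15 of 33 above 0 (median -0.015). Atf5 was at 326 ± 56.8 CPM in the Cre group, against 265 ± 22.7 CPM in the Cre-miR122 group (log2 fold change -0.30, SE 0.13), and Fgf21, a hormone of starvation, at 5.003 ± 3.65 and 2.37 ± 0.527 CPM (-1.09, SE 0.47). Both were highest in Cre replicate 11. In Cre-miR122 replicate 1, where Slc38a2 was highest, the median of the list lay 0.096 above its 6-library mean in log2 units (0.16 above in Cre replicate 10), and its part in the Slc38a2 value was not tested. Genes of glutamine and urea metabolism had 18 of 20 above 0 (median 0.11), with Cps1 at 0.37 (SE 0.18) and the mitochondrial ornithine carrier Slc25a15 at 0.18 (SE 0.10). In Cre replicate 11 the median of that list lay 0.20 below its 6-library mean in log2 units. Cystine and glutathione genes had 9 of 15 above 0 (median 0.024), with Nqo1 at 0.36 (SE 0.17) and Gss at -0.15 (SE 0.077).

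The amino acid response acts through a DNA word bound by Atf4 with C/EBP factors. The word TGATGCAA was searched on both strands (as TTGCATCA on the other) in the promoter windows, where 0.895% of all 32851 windows hold it. It was found in 4 of 39 windows of the carriers, those of Slc7a11 (2 matches), Slc1a4 (1) and 2 overlapping windows of Slc7a7 (1 each). The first 2 are printed because they bracket the range of expression, from at most 2 counts for Slc7a11 to 23.02 TPM for Slc1a4, with the word in capitals (Slc7a11, chr3:50443564-50443863, and Slc1a4, chr11:20332664-20332963, both minus strand, GRCm38.p6).
Slc7a11: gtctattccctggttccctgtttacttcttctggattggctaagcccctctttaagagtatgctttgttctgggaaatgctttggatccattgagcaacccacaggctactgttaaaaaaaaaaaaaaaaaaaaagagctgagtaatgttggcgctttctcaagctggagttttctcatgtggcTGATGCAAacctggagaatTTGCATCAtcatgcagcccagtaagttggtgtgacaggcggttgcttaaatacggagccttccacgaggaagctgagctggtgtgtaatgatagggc
Slc1a4: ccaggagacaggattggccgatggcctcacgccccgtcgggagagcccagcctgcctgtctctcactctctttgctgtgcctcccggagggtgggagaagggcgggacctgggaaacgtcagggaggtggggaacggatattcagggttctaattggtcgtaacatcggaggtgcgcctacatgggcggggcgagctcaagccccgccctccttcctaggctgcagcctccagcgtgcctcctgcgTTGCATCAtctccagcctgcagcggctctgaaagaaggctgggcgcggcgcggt
A match describes the letters only, and no binding was measured.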

How the data were processed

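The values deposited by the authors are raw counts, whole numbers of reads for every gene, beside the exon length. The submitters' processing notes name STAR 2.7.9a, featureCounts 2.0.1 and the build GRCm38 (mm10). Strandedness and multi-mapping settings were not given in the sources used here. Another 5 count columns match no sample and were left out. Groups and replicate numbers came from the sample titles.

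Genes were tested with edgeR 4.0.16 (quasi-likelihood F test, R 4.3.3, TMM scaling, filterByExpr, group alone, two-sided), all genes in a single fit, and the tool was tested on simulated data. There it called 82% of 2-fold rises, 80% of 2-fold drops and 96% of 4-fold changes in either direction, with 14 false calls. Some true 2-fold changes would therefore be missed. The standard error was derived from the F statistic. The common biological coefficient of variation was 11.8%. TPM was computed from the counts and exon lengths. No 2 libraries were alike within counting error (lowest chi-square over its degrees of freedom 6.15). Alternatives were other scalings and filters, DESeq2 1.42.0, limma-voom (limma 3.58.1), robust dispersion and leaving out each library. UTRs came from GENCODE M21 and promoters from RefSeq (GRCm38.p6).

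Every carrier gene is named. Full values are given for a fixed set, the smallest p in each direction and the highest levels, and from each other list up to 3 genes of smallest p were eligible. The genes and lists were chosen with earlier results of these data known.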

Additional observations from a re-analysis of the deposited data

How the results depend on the processing

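No carrier gene passed the edgeR, DESeq2 or limma-voom test under any of the 14 alternatives, where the smallest adjusted p was 0.474. Over all genes, 2 were called without a filter on low counts and 3 with DESeq2, none of them a carrier. The median log2 fold change of the carriers was 0.085 without a filter and 0.084 with DESeq2, which then cover 34 carriers, and leaving out a library gave -0.053 to 0.058. The number of carriers at an unadjusted p under 0.05 was 0 to 4 when a library was left out. The 4 of 24 tested came without Cre-miR122 replicate 1 (Slc36a1, Slc38a3, Slc38a11 and Slc7a4, where 7.79% of all genes reached that level). Without Cre replicate 10 it was Slc7a2 alone (1 of 24, beside 5.64% of all genes). Without Cre replicate 12 it was Slc38a11 (1 of 23, beside 10.5%), and without Cre-miR122 replicate 4 it was Slc1a4 (1 of 24, beside 2.9%). Of the 23 carriers, 10 kept their sign in all settings and 13 changed it in 17 of 322 values, each time when a library was left out. Leaving out a library, the log2 fold change ran from -0.088 to 0.24 for Slc1a2, from -0.30 to 0.086 for Slc1a5, from -0.038 to 0.25 for Slc36a1, from -0.18 to 0.093 for Slc38a1, from -0.13 to 0.48 for Slc38a2, from -0.019 to 0.23 for Slc38a4, from -0.075 to 0.089 for Slc38a7, from -0.11 to 0.048 for Slc38a9, from -0.0058 to 0.30 for Slc3a1, from -0.088 to 0.022 for Slc3a2, from -0.062 to 0.48 for Slc7a2, from -0.35 to 0.041 for Slc7a5 and from -0.29 to 0.037 for Slc7a8. The cause was not tested. For Slc7a1 it ran from -0.41 to -0.13. No paired analysis was possible because the groups share no replicate number. With at most 49 counts per library for Slc7a1, counting error limits what could be seen.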
